A study of Mus musculus with 6 samples.

Results

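Carbonic anhydrases are zinc enzymes that interconvert carbon dioxide and bicarbonate, and the genes followed here are the mouse Car genes Car1, Car2, Car3, Car4, Car7, Car8, Car9, Car12, Car13 and Car14. They were taken by gene symbol, with every probe set (a group of short array probes that measures 1 transcript or set of transcripts) annotated to them. The 10 genes, of 18194 named genes on the array, had 22 probe sets of 34958 with a single gene symbol: 4 genes had 1 probe set and 6 had several. Expression was measured in colon of C57BL/6 mice aged 6 to 8 weeks, taken 24 h after ethanol had been injected into the rectum, an injection that every group received, wild type (WT) included. The 3 groups were WT, knockout of GPR41 (GPR41 KO, gene Ffar3) and knockout of GPR43 (GPR43 KO, gene Ffar2), with 2 arrays each. Both receptors bind short-chain fatty acids, the acids that colon bacteria make from fibre. The labels do not describe the knockout alleles, whether WT animals were littermates, or whether the arrays of a group came from separate animals, so the spread between arrays may be technical. No untreated colon was used here, so the comparisons are of genotypes that had all received ethanol.

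In the colon the enzymes provide the surface epithelium with bicarbonate and protons, which chloride-bicarbonate and sodium-proton exchangers then trade for salt at the luminal membrane. Car1, Car2, Car3, Car7 and Car13 encode cytosolic enzymes. Car4 encodes an enzyme tied to the outer face of the cell membrane by a lipid anchor, and Car9, Car12 and Car14 encode enzymes that span the membrane with the catalytic part outside. Car8 encodes a related protein without carbonic anhydrase activity.

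Values are MAS5 signals, an intensity per probe set on a linear scale, which the deposited table holds already scaled: the mean without the lowest and highest 2% of probe sets was 499.8 in each array, and median signals ran from 80.9 to 96.8. The 3′ to 5′ signal ratio of Gapdh, a measure of RNA integrity, was 0.778 to 0.858. Ffar2, the targeted gene of the GPR43 line, read 1194 and 1118 in WT, with 1857 and 1933 in GPR41 KO, whereas the GPR43 KO arrays read 1598 (replicate 1) and 189 (replicate 2). For the gene its label names, the library labelled GPR43 KO replicate 1 thus lay above both WT arrays, so the called results for that group are also given without it. No probe set carried the symbol Ffar3, so the GPR41 label could not be checked in this way. The defining markers of colon epithelium were present: all 8 genes with a probe set passed the filter on weak signals, with a summed signal of 182952 to 219659 in WT, 234794 to 235168 in GPR41 KO and 242466 to 269418 in GPR43 KO. Among the marker lists used here, neutrophil markers had the largest median difference: 7 of 7 tested genes fell in each knockout comparison. Of these, Clec4e, Mmp8 and Ngp were under the filter level in all knockout arrays. Csf3r was under it in both GPR41 KO arrays (53.8 and 97.9) and in GPR43 KO replicate 2 (100.1), with 224 in the library labelled GPR43 KO replicate 1. These genes, Csf3r included, passed the filter through their WT signal, so a fall was built in. The untested Cxcr2, Camp and Ltf had lower knockout means. Also untested, Mpo (mean 35.47 for WT, 31.35 for GPR41 KO, 31.58 for GPR43 KO) and Elane (21.99, 91.87 and 63.0) were weak. The 12 with a probe set summed to 74590.2 and 133577 in WT. The knockout sums were 1104 to 1128 (GPR41 KO) and 1164 to 3176 (GPR43 KO). S100a8 (32866 and 56389) and S100a9 (35541 and 58734) made up most of the WT sums. The part of these differences in cell content in the results below was not tested, and in whole tissue fewer cells of a type and less RNA per cell cannot be told apart.

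Each gene was represented by its probe set with the highest mean log2 signal, 10916 genes above the 40th percentile (a signal of about 126) were tested with limma on log2(signal + 18), and a gene was called changed at a Benjamini-Hochberg adjusted p under 0.05 over all 10916. Fold changes are differences on that log2 scale, with the standard error (SE) or the 95% confidence interval of the fit. Of the 10 carbonic anhydrase genes, 8 were tested, while Car7 and Car14 were below the filter. Car2 and Car3 rose in GPR41 KO against WT and in GPR43 KO against WT, none fell, and 6 did not pass in either comparison. Over all genes tested, 4.96% were called in GPR41 KO (1.85% rose and 3.11% fell) and 3.96% in GPR43 KO (1.55% rose and 2.41% fell). The median log2 difference of the 8 genes was 0.35 in GPR41 KO and 0.30 in GPR43 KO, beside 0.00051 and 0.030 over all genes. The knockout comparisons share the same WT arrays and are not independent of each other. Without the library labelled GPR43 KO replicate 1, Car3 was the 1 gene called in each comparison.

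**Figure D1:**
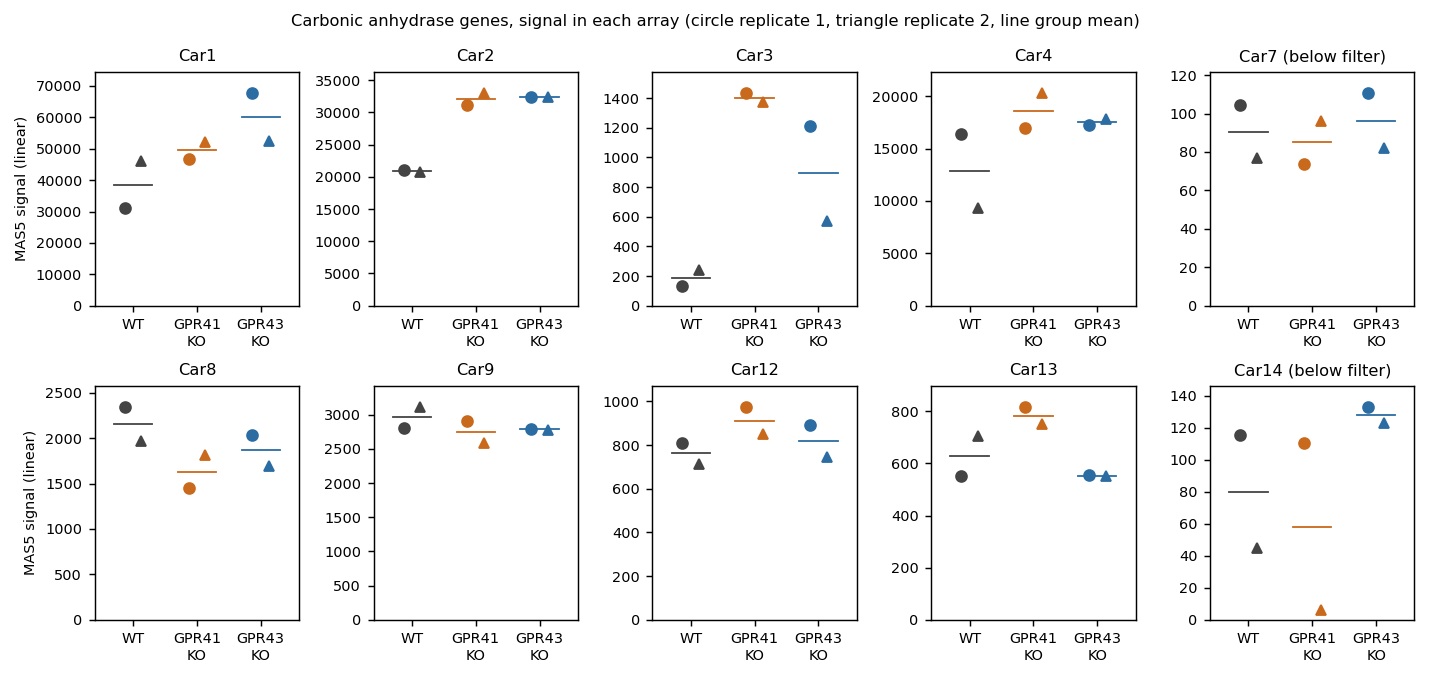
MAS5 signal of the 10 carbonic anhydrase genes in each of the 6 arrays, for the probe set that stands for each gene, on linear axes that start at 0 (circle replicate 1, triangle replicate 2, line group mean, colours by group). Car2 and Car3 have both arrays of each knockout group above both WT arrays, while the Car9 arrays lie between 2584 and 3111.

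Car2 encodes the fast cytosolic enzyme that is found in most epithelia that move acid or bicarbonate. Its signal (probe set 1448752_at) reached 21002 and 20727 in WT, 31198 and 32961 in GPR41 KO, and 32412 and 32434 in GPR43 KO. All 4 knockout arrays lay above both WT arrays, and arrays of a group differed little: the group means were 20864 ± 194 (SD, n = 2) for WT, 32079.8 ± 1247 for GPR41 KO and 32423 ± 15.2 for GPR43 KO. Car2 was 1.54-fold higher in GPR41 KO (log2 0.62 ± 0.12 SE, adjusted p = 0.0232) and 1.55-fold higher in GPR43 KO (log2 0.64 ± 0.12 SE, adjusted p = 0.0253) by limma. Between the knockout groups the difference was 0.02, with an interval from -0.26 to 0.29. The Car2 call depended on single arrays: without the library labelled GPR43 KO replicate 1 the adjusted p was 0.0629 for GPR41 KO (log2 0.62) and 0.145 for GPR43 KO (log2 0.64), and leaving out GPR43 KO replicate 2 or either GPR41 KO array also ended it, with adjusted p up to 0.186, while it held without either WT array.

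Car3 encodes a cytosolic enzyme of low activity that is best known from fat cells, slow skeletal muscle and liver. Its stronger probe set, 1449434_at, had a signal of 136 and 240.0 in WT, 1433 and 1375 in GPR41 KO, and 1213 and 572 in GPR43 KO, the higher value coming from the library labelled GPR43 KO replicate 1. The groups did not overlap, WT was near the filter level, and the GPR43 KO arrays differed from each other by more than those of the other groups. The ratio of group means was 7.46 for GPR41 KO and 4.74 for GPR43 KO, and the log2 differences were 2.83 ± 0.34 SE (adjusted p = 0.00278) and 2.09 ± 0.34 SE (adjusted p = 0.0132) by limma. Without the library labelled GPR43 KO replicate 1 the differences were 2.83 (adjusted p = 0.000956) and 1.56 (adjusted p = 0.0485), and without GPR43 KO replicate 2 the second was 2.63. Each call held when any 1 of the 6 arrays was left out. The difference between the knockout groups was -0.74, with an interval from -1.52 to 0.04 and an adjusted p of 0.870, and did not pass.

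A second Car3 probe set, 1460256_at, had a signal of 66.9 and 157 in WT, 671 and 634 in GPR41 KO, and 528 and 233 in GPR43 KO. It showed the same order of arrays within and between groups as the stronger probe set. Fitted among the 20975 probe sets above the 40th percentile of probe sets, a lower level (a signal of about 75.3) than that for genes, it rose in GPR41 KO (log2 2.46, adjusted p = 0.0148), and its value in GPR43 KO was 1.60 (adjusted p = 0.0938). The other Car3 probe sets, 1430584_s_at and 1453588_at, stayed at 1.57 to 53.0 in all arrays, at or below background. Taking the mean over all 4 Car3 probe sets therefore lowered the difference to 1.36 for GPR41 KO (adjusted p = 0.0314) and to 0.90 for GPR43 KO (adjusted p = 0.139).

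Since Car3 is known from fat and muscle, markers of both were followed beside it. Of 12 adipocyte markers 9 had a probe set and 7 were tested: Lpl, which releases fatty acids from lipoproteins (log2 0.92), and Thrsp, a lipogenic gene (1.50), rose in GPR41 KO, none rose in GPR43 KO, and Fabp4, a fatty acid carrier of fat cells and macrophages, fell in both (-0.89 and -1.06). Single arrays ended some of these calls: Fabp4 had an adjusted p of 0.104 without GPR41 KO replicate 1 and 0.0631 without GPR43 KO replicate 2, Lpl 0.0934 without GPR41 KO replicate 2 and Thrsp 0.0835 without GPR41 KO replicate 1. Adipoq, the fat cell hormone adiponectin, had a signal of 40.7 and 174 in WT, 368 and 311 in GPR41 KO, and 267 and 109 in GPR43 KO. Its differences of 1.75 (adjusted p = 0.123) and 0.84 (adjusted p = 0.449) did not pass, and the leptin gene Lep and Adig were under the filter level in every array. The remaining tested markers, Pck1 (0.45 and 0.38), Retn (0.07 and -0.70) and Cidec (0.32 and -0.12), did not pass either. The summed signal of the 9 adipocyte markers was 4803 to 5287 in WT, 5863 to 5869 in GPR41 KO and 4352 to 4698 in GPR43 KO. Without Fabp4 the other 8 summed to 2696 and 2801 in WT, 4576 and 4716 in GPR41 KO, and 3283 and 3593 in GPR43 KO. All knockout arrays were then above both WT arrays, whereas with Fabp4 both GPR43 KO arrays were below both WT arrays. Lpl and Pck1 made up most of the sums without Fabp4. The part of the adipocyte markers in the Car3 result was not tested.

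Of 13 skeletal muscle markers with a probe set, 8 were under the filter level in every array: Mb, Myh1, Myh2, Myh4, Myh7, Tnnt3, Tnnc2 and Actn3, among them the myosin heavy chains and myoglobin that define muscle fibres. Of the 3 tested, Eno3, the muscle form of the glycolytic enzyme enolase, rose in both comparisons (log2 2.46, adjusted p = 0.0022, and 2.79, adjusted p = 0.0015). Its signal was 706 and 365 in WT, 2750.1 and 3008 in GPR41 KO, and 2992 and 4359 in GPR43 KO. The other tested markers, Ckm (0.58 and 0.65) and Acta1 (0.33 and 0.48), also had all knockout arrays above both WT arrays but did not pass. Tnnt1 and Mylpf, which were not tested, had lower knockout means than WT. The ratio to the WT mean was 0.69 (GPR41 KO) and 0.60 (GPR43 KO) for Tnnt1, with 0.86 and 0.98 for Mylpf. Their knockout arrays overlapped with WT, apart from Tnnt1 in GPR43 KO, where both lay below both WT arrays. Summed over the list, the signal was 1688 to 2035 in WT, 4100 to 4796 in GPR41 KO and 4823 to 5907 in GPR43 KO. Eno3 made up most of that rise: the other 12 markers summed to 1323 to 1329.5 in WT, 1349.5 to 1788.5 in GPR41 KO and 1547.7 to 1830.5 in GPR43 KO.

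**Figure D2:**
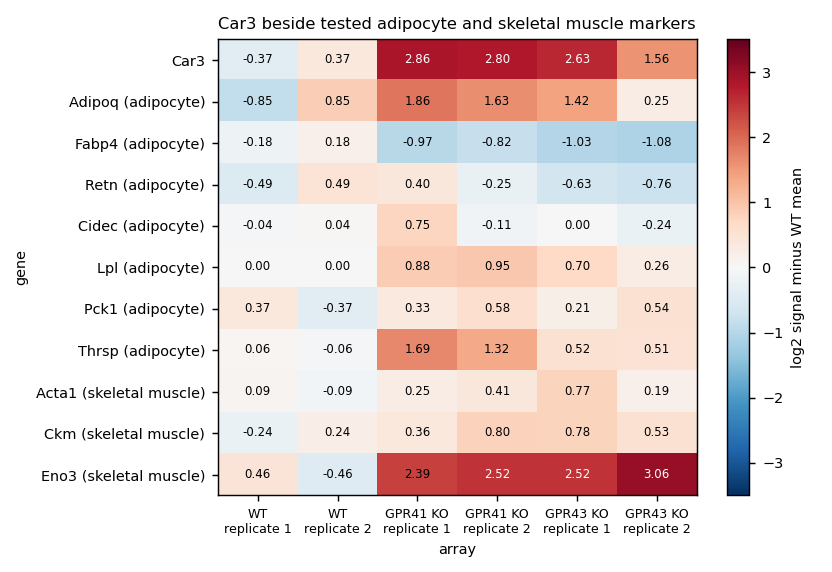
Log2(signal + 18) minus the WT mean of Car3, the 7 tested adipocyte markers and the 3 tested skeletal muscle markers (rows) in each of the 6 arrays (columns), red above and blue below WT. Car3, Lpl, Thrsp, Acta1, Ckm and Eno3 have all knockout arrays above both WT arrays. Adipoq in GPR43 KO replicate 2 lies below WT replicate 2, and Fabp4 is below WT in every knockout array.

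Car1 encodes a cytosolic enzyme that is abundant in colon surface cells and in red blood cells. Its probe set 1416193_at had a signal of 31148 and 46034 in WT, 46810 and 52199 in GPR41 KO, and 67668 and 52410 in GPR43 KO, where the library labelled GPR43 KO replicate 1 was the highest. The groups did not overlap, with all knockout arrays above both WT arrays, but WT replicate 2 lay close to the lower GPR41 KO array. The difference from WT was 0.38 for GPR41 KO (interval -0.09 to 0.86, adjusted p = 0.366) and 0.65 for GPR43 KO (0.18 to 1.13, adjusted p = 0.132), neither passing. Without WT replicate 2 the GPR43 KO value was 0.93 (adjusted p = 0.0233), so a single WT array decides that call, and without the library labelled GPR43 KO replicate 1 it was 0.47 (adjusted p = 0.456). Markers of red blood cells were near background: all 5 erythroid markers with a probe set were under the filter level in every array, the highest value being 88.7 for Alas2, the first enzyme of haem synthesis in red cells.

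Car13 encodes another cytosolic enzyme. Its probe set 1421307_at had a signal of 551 and 704 in WT, 816 and 750.0 in GPR41 KO, and 554 and 551 in GPR43 KO. GPR41 KO was the highest group, while GPR43 KO overlapped with WT. The difference from WT was 0.32 for GPR41 KO (adjusted p = 0.350) and -0.17 for GPR43 KO (adjusted p = 0.634), and the difference of GPR43 KO from GPR41 KO was -0.49 (interval -0.87 to -0.10, unadjusted p = 0.0187, adjusted p = 0.870). Car13 was the 1 gene of the 8 with an unadjusted p under 0.05 between the knockout groups, as 596 of all 10916 genes had. At an adjusted p under 0.05, 0% of all genes were called there. A weaker probe set, 1421308_at, gave 0.36 and -0.03 against WT, and 1439620_at stayed at background, between 9.91 and 55.6.

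Car7, a cytosolic enzyme known mainly from neurons, was below the filter. Its strongest probe set, 1443824_s_at, read 104 and 76.7 in WT, 73.8 and 96.2 in GPR41 KO, and 111 and 82.1 in GPR43 KO, and the groups overlapped. Fitted without the filter, its differences from WT were -0.07 and 0.08.

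Car1, Car2, Car3 and Car13 are neighbours on mouse chromosome 3. In GRCm38.p6, the build of the RefSeq gene table used here, Car13 lies at chr3:14641727-14663002, Car1 at chr3:14766214-14808365, Car3 at chr3:14863538-14872381 and Car2 at chr3:14886269-14900770. The 259 kb from the start of Car13 to the end of Car2 hold 7 annotated genes, 4 of them protein coding, namely these members. Their differences ranged from 0.32 to 2.83 in GPR41 KO and from -0.17 to 2.09 in GPR43 KO, and Car2 and Car3, which lie closest to each other, were the called ones. Within 1 Mb on either side 2 other genes were tested, the cell cycle transcription factor gene E2f5 (0.04 and 0.08) and Rbis (-0.44 and -0.54), and neither passed in either comparison. These neighbours were listed after their values were seen.

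Car4 encodes the lipid-anchored enzyme of the luminal surface. Its probe set 1448949_at had a signal of 16356 and 9306 in WT, 16944 and 20281 in GPR41 KO, and 17229 and 17792 in GPR43 KO. All knockout arrays were above both WT arrays, but WT replicate 1 lay just under the lowest of them and WT replicate 2 far below. The differences of 0.59 in GPR41 KO (interval 0.05 to 1.12, adjusted p = 0.212) and 0.50 in GPR43 KO (-0.03 to 1.04, adjusted p = 0.274) did not pass. They turned on 1 WT array: without WT replicate 1 they were 0.99 (adjusted p = 0.0028) and 0.91 (adjusted p = 0.00536), and without WT replicate 2 they were 0.18 and 0.098. WT replicate 2 was also the WT array with the higher summed neutrophil signal and the lower summed signal of the transport genes described below. The second probe set, 1418094_s_at, read 16661 and 9117 in WT, 19302 and 17560.4 in GPR41 KO, and 15304 and 16968 in GPR43 KO, so that here the library labelled GPR43 KO replicate 1 was below WT replicate 1.

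Car9 encodes a membrane enzyme that cells switch on at low oxygen through the factor HIF. Its signal (probe set 1427013_at) was 2810.2 and 3111 in WT, 2902 and 2584 in GPR41 KO, and 2786 and 2781 in GPR43 KO. WT and GPR41 KO overlapped, both GPR43 KO arrays were slightly below both WT arrays, and the whole spread was small. The differences were -0.11 (interval -0.39 to 0.17) and -0.09 (-0.37 to 0.19), neither passing, and the first was 0.0033 when arrays were centred on their median. Over all genes 22.9% had both GPR43 KO arrays below both WT arrays.

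Of 16 other hypoxia-inducible genes, all tested, 2 fell in each comparison and none rose, with a median of -0.29 in GPR41 KO and -0.31 in GPR43 KO. Bnip3, a mitophagy receptor, had a signal of 2667 and 4016 in WT, 1416 and 1114 in GPR41 KO, and 1463 and 1273 in GPR43 KO, all knockout arrays being below both WT arrays (log2 -1.37, adjusted p = 0.00682, and -1.25, adjusted p = 0.0132). Ero1a, an oxidase of the endoplasmic reticulum, fell too (-0.60, adjusted p = 0.0435, and -0.85, adjusted p = 0.0122). Both calls were lost in GPR41 KO without GPR41 KO replicate 2 (adjusted p = 0.0549 for Bnip3 and 0.223 for Ero1a) and in GPR43 KO without GPR43 KO replicate 2 (0.102 and 0.105). Leaving out the library labelled GPR43 KO replicate 1 ended the Ero1a call in GPR41 KO (0.0668) and neither call in GPR43 KO. Over the 6 fits that each left out 1 array, the Ero1a call in GPR41 KO held in 1 and the Bnip3 call in 5. In GPR43 KO they held in 4 and 5. The Ero1a difference in GPR41 KO ranged from -0.71 to -0.49 over these fits. Hk2, a hexokinase gene, read 2242 and 2325 in WT, 3734 and 3029 in GPR41 KO, and 2594 and 2487 in GPR43 KO, with all knockout arrays above both WT arrays, and its differences of 0.56 (adjusted p = 0.0522) and 0.15 did not pass. The glucose transporter gene Slc2a1 (-0.22, and -0.59 with an adjusted p of 0.0559) did not pass either.

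Car12 encodes a second membrane enzyme with its catalytic part outside. Its probe set 1428485_at had a signal of 810 and 714 in WT, 974 and 849 in GPR41 KO, and 891 and 744 in GPR43 KO. GPR41 KO lay above WT without overlap, as 24.6% of all genes did, and GPR43 KO overlapped with both other groups. The differences were 0.25 (adjusted p = 0.444) and 0.10 (adjusted p = 0.789). The other Car12 probe sets were weak, between 3.74 and 135. Car14, a membrane enzyme known from kidney and brain, was below the filter, and its probe set 1450725_s_at read 116 and 44.6 in WT, 110 and 6.03 in GPR41 KO, and 133 and 123 in GPR43 KO, so the GPR43 KO arrays lay just above the others and the arrays of WT and of GPR41 KO far apart. Fitted without the filter, its differences from WT were -0.72 and 0.67.

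The promoter of Car9 is shown because Car9 is the member known to answer low oxygen, through a HIF site whose core letters are ACGTG or GCGTG, and that of Car4 beside it as another tested membrane enzyme. Each is 250 bases before to 10 bases after the annotated gene start, from RefSeq on GRCm38.p6 (mouse), plus strand, 5′ to 3′, with any match on either strand in capitals.
Car9, chr4:43506776-43507035: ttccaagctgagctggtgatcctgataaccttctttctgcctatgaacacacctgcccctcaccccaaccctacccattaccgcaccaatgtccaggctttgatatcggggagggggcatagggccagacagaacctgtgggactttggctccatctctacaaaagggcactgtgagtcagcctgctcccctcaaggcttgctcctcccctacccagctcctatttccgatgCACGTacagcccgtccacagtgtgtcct
Car4, chr11:84957504-84957763: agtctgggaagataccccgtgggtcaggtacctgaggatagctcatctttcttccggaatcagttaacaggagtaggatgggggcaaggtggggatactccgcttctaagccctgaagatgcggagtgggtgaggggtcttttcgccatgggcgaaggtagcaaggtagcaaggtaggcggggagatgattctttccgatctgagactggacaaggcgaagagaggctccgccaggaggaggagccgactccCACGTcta
The Car9 window holds 1 match on the minus strand 18 bases before the start, and the Car4 window holds 1 on the minus strand at position 3 after the start. Either form is found in 39.6% of all 32851 promoters of the same length (ACGTG in 17.3%, GCGTG in 29.1%). A match is therefore given as a description of letters, and whether either match is a HIF site was not tested. The promoter set also has a window for Car12, another tested membrane enzyme, with 0 matches. It starts at chr9:66713436, inside the gene as annotated from chr9:66712296, and is not shown.

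Car8 encodes the protein without enzyme activity, which is known to bind a calcium release channel in Purkinje neurons. Its probe set 1427482_a_at had a signal of 2343 and 1971 in WT, 1447 and 1810.3 in GPR41 KO, and 2031 and 1699 in GPR43 KO. Both GPR41 KO arrays were below both WT arrays, as for 25.3% of all genes, while GPR43 KO overlapped with WT. The differences were -0.40 (interval -0.77 to -0.04, adjusted p = 0.214) and -0.21 (-0.58 to 0.16, adjusted p = 0.528). A weaker probe set, 1424958_at, read 282 and 243 in WT, 149 and 165 in GPR41 KO, and 186 and 177 in GPR43 KO, with all knockout arrays below WT (-0.68, adjusted p = 0.201, and -0.49, adjusted p = 0.354), and 1457904_at stayed at 65.9 to 115. Of 8 tested markers of enteric neurons and glia, Vip, a neuropeptide gene, fell in GPR41 KO (-1.17, adjusted p = 0.0136, 0.113 without GPR41 KO replicate 1, and 0.0502 if WT replicate 2 is left out) and none fell in GPR43 KO. The summed signal of the list was 7050.5 to 9251 in WT, 4239 to 5089 in GPR41 KO and 4674 to 6283 in GPR43 KO. Without Vip the other 9 markers summed to 2635 to 3297 in WT, 2252 to 2506 in GPR41 KO and 2193 to 2894 in GPR43 KO, where WT and GPR43 KO overlapped. Their part in the Car8 values was not tested.

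**Figure D3:**
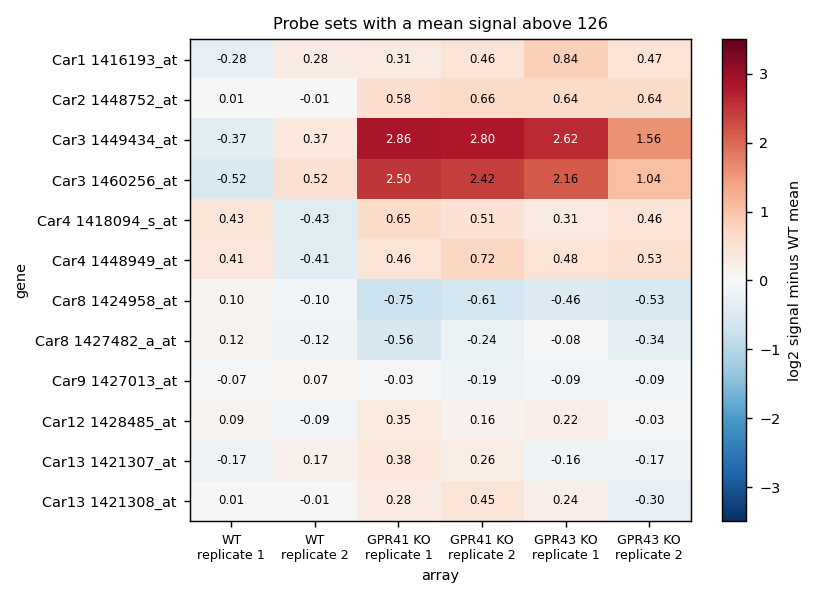
Log2(signal + 18) minus the WT mean for the carbonic anhydrase probe sets with a mean signal above 126 (rows, labelled by gene and probe set) in each array (columns), red above and blue below WT. The 2 Car3 probe sets are raised in all 4 knockout arrays, both Car4 probe sets are lowest in WT replicate 2, and both Car8 probe sets are below the WT mean in all knockout arrays.

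Counting arrays rather than calls, 6 of the 8 tested genes had both GPR41 KO arrays above both WT arrays, 1 had both below and 1 overlapped, where 24.6% and 25.3% of all genes did the former and the latter. In GPR43 KO the counts were 4 above, 1 below and 3 overlapping, against 27.7% and 22.9% of all genes. At an unadjusted p under 0.05 by limma there were 4 of the 8 genes in GPR41 KO and 3 in GPR43 KO, beside 2132 and 2181 of all 10916 genes. Between GPR43 KO and GPR41 KO no gene of the 8 was called by limma at an adjusted p under 0.05 and none of all 10916 was, although 596 of these had an unadjusted p under 0.05. There 1 gene of the 8 had both GPR43 KO arrays above both GPR41 KO arrays, 2 had both below and 5 overlapped, against 23.1% and 14.8% of all genes. The order of group means was WT, GPR41 KO, GPR43 KO for Car1, with neighbours not overlapping, and WT, GPR43 KO, GPR41 KO for Car3. For Car2 and Car4 the knockout groups overlapped with each other above WT.

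**Figure D4:**
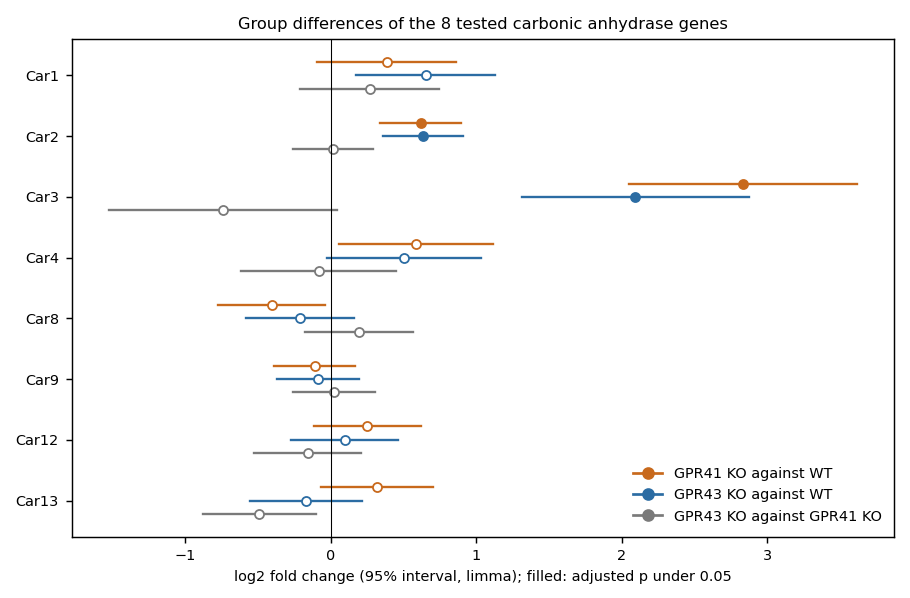
Log2 fold change of the 8 tested carbonic anhydrase genes in GPR41 KO and GPR43 KO against WT and in GPR43 KO against GPR41 KO, with 95% confidence intervals of the limma fit and filled points where the adjusted p was under 0.05. Car2 and Car3 are called in both comparisons with WT, and no gene is called between the knockout groups.

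Of 6 other genes of the family, Car5a, Car5b, Car6 and Car10 stayed under the filter level in every array. Car11, which like Car8 encodes a protein without enzyme activity, was the 1 gene tested, with differences of -0.38 (adjusted p = 0.550) and 0.23 (adjusted p = 0.720).

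Genes that carry bicarbonate, protons, chloride and water across the epithelium are partners of these enzymes. Of 23 listed, 20 had a probe set and 18 were tested: 4 rose in GPR41 KO and 3 in GPR43 KO, none fell, and the median difference was 0.79 and 0.66, with 18 and 17 of 18 values above 0. Over all genes tested, 1.85% and 1.55% rose, and 50% and 54% of values were above 0. The list was drawn up with earlier results of these data known, so its direction is not independent evidence. The summed signal was 82608 to 111974 in WT, 146359 to 170270.0 in GPR41 KO and 147252 to 162034 in GPR43 KO. The counts of genes that rose depended on single arrays: without WT replicate 1 they were 11 in each comparison, without WT replicate 2 they were 3 and 2 with medians of 0.39 and 0.25, without either GPR41 KO array the GPR41 KO count was 2, and without the library labelled GPR43 KO replicate 1 or GPR43 KO replicate 2 the GPR43 KO count was 1. With no intensity trend in the fit the counts were 2 and 0.

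Atp12a, the colonic proton-potassium pump, had a signal of 710 and 628 in WT, 4319 and 4184 in GPR41 KO, and 1513 and 3407 in GPR43 KO, the library labelled GPR43 KO replicate 1 being the lower. All knockout arrays were above WT, and its differences of 2.64 (adjusted p = 0.0022) and 1.74 (adjusted p = 0.0173) passed without any 1 array. Aqp8, a water channel of surface cells, read 2840.4 and 1106 in WT, 7725 and 6871 in GPR41 KO, and 5394 and 7516 in GPR43 KO. It rose by 2.03 (adjusted p = 0.0145, and 0.104 without GPR41 KO replicate 1) and 1.83 (adjusted p = 0.0284, and 0.0586 without the library labelled GPR43 KO replicate 1). Clca4a, a chloride channel regulator, rose by 1.61 (adjusted p = 0.0071) and 1.36 (adjusted p = 0.0194, and 0.0764 without that library). Slc9a2, a sodium-proton exchanger, rose in GPR41 KO (0.88, adjusted p = 0.0307, and 0.143 without GPR41 KO replicate 2), with a value of 0.72 in GPR43 KO (adjusted p = 0.0683).

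Slc26a3, the chloride-bicarbonate exchanger of the colon surface, had a signal of 12078 and 5108 in WT, 16234 and 16389 in GPR41 KO, and 14146 and 15584 in GPR43 KO. As with Car4, WT replicate 2 was far below WT replicate 1, and the differences of 1.05 (adjusted p = 0.110) and 0.92 (adjusted p = 0.158) did not pass. The values of the sodium-proton exchanger Slc9a3 (0.33 and 0.22), the sodium-bicarbonate cotransporter Slc4a4 (0.56 and 0.45), the chloride channel Cftr (0.76 and 0.60) and the sodium channel subunit Scnn1a (0.81 and 0.79) did not pass either. The anion exchanger Slc4a2 (0.07 and 0.16) and the potassium channel Kcnn4 (0.04 and -0.03) lay near 0. Of the rest, Slc5a8 (1.09 and 0.91) and Slc16a1 (0.24 and 0.18), carriers of short-chain fatty acids, Clca1 (1.08 and 1.27), a goblet cell product, Aqp4 (1.12 and 0.82), a water channel, Slc9a3r1 (0.45 and 0.11), a scaffold of Slc9a3, Slc12a2 (0.12 and 0.17), a chloride cotransporter, and Atp1b1 (0.22 and 0.33), a sodium pump subunit, did not pass.

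**Figure D5:**
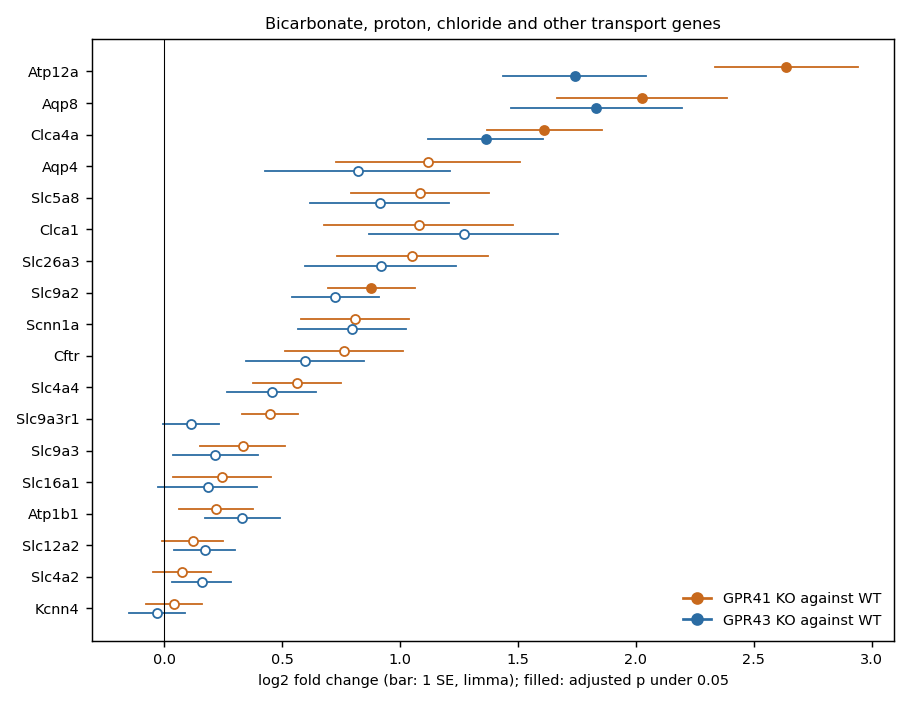
Log2 fold change of the 18 tested transport genes in GPR41 KO and GPR43 KO against WT, with bars of 1 SE of the limma fit and filled points for an adjusted p under 0.05. Atp12a, Aqp8 and Clca4a are called in both comparisons and Slc9a2 in GPR41 KO alone, with Kcnn4 and Slc4a2 near 0.

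Markers of the surface cells that carry these enzymes were followed as well. Of 16 tested markers of absorptive colonocytes, Aqp8, the cytochrome gene Cyp2c55 (0.89) and Vil1, a microvillus protein gene (0.58), rose in GPR41 KO, and Aqp8 and Cyp2c55 (1.03) rose in GPR43 KO, with medians of 0.29 and 0.31 over the list. Without the library labelled GPR43 KO replicate 1 the counts were 1 and 0. In GPR41 KO 11 of the 16 values were above 0 and in GPR43 KO 12, beside 50% and 54% of all genes. Slc51a (-0.23 and -0.45), Slc51b (-0.36 and -0.37), Tmigd1 (-0.10 and -0.36) and Guca2b (-0.07 and -0.04) were below 0 in both comparisons. Saa1 was below 0 in GPR41 KO (-0.39), and none of these passed. The summed signal of the list was 249584 to 276759.8 in WT, 326039.9 to 335547 in GPR41 KO and 317389 to 371635 in GPR43 KO, and the list shares genes with the transport list. Of the 8 defining epithelial markers Vil1 rose in GPR41 KO and none rose in GPR43 KO. Of 9 goblet cell markers, Agr2, a protein-folding gene, rose in both comparisons (0.65 and 0.75) and Spink4 in GPR43 KO (1.05), and none did without the library labelled GPR43 KO replicate 1. Leaving out either array of a knockout group ended that group's calls of Vil1, Cyp2c55, Agr2 and Spink4.

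Of 8 smooth muscle markers, the actin gene Actg2 (0.83 and 0.88) and the filament gene Synm (0.77 and 0.80) rose in both comparisons and Smtn in GPR43 KO (0.85). With either array of the GPR43 KO group left out the counts were 2 and 0, and without GPR41 KO replicate 1 or 2 the GPR41 KO count was 1 or 0. Summed over the list, the signal was 74369.7 to 83047 in WT, 94170.0 to 109295 in GPR41 KO and 106837 to 123424 in GPR43 KO. Of 5 tested genes that mark position along the colon, none passed in either comparison. Of these, 5 had differences above 0 in GPR41 KO (median 0.34) and 3 in GPR43 KO (median 0.39), where 50% and 54% of all genes did. The 6 with a probe set summed to 4438 to 5685 in WT, 6476 to 6694 in GPR41 KO and 5336 to 7878 in GPR43 KO. The part of these markers in the Car1, Car2 and Car4 values was not tested.

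The tested genes whose 6 log2 values, centred on their mean, were most like those of each carbonic anhydrase were found by the root mean square difference over the 6 arrays. For Car2, which itself varied by a root mean square of 0.297, they were Pcyt2 at 0.0439, an enzyme of phospholipid synthesis, Tspan3 at 0.0466 and Fgfbp1 at 0.0477. For Car3, which varied by 1.26, the nearest were the antibody light chain gene Iglv1 at 0.423, the carboxylesterase gene Ces1f at 0.569 and the bile acid carrier gene Fabp6 at 0.584. For Car1, varying by 0.334, they were the smooth muscle genes Tpm2 at 0.0619, Myh11 at 0.0809 and Synpo2 at 0.0921. For Car4, varying by 0.358, they were the cell cycle genes Cdc25b at 0.0602 and Spag5 at 0.0695, and Tmem236 at 0.0733. They were picked from 10916 genes over 6 arrays and are descriptions. The nearest to Car8 were Camk2n1, Rab23 and Dock11, to Car9 Sin3b, Atp6v1c1 and Hnrnpa0, to Car12 Thap1, Dynll2 and Phf13, and to Car13 Mctp2, Got1 and Ints11.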

How the data were processed

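Colon RNA of 6 samples, purified with Trizol followed by a Qiagen kit and labelled with biotin, was measured on 1 Affymetrix mouse array per sample, per the labels. The deposited table holds an intensity per probe set, made by the authors with MAS5 per the submitters' processing notes, with no version given in the sources used here. MAS5 signals are background-subtracted, so ratios of weak signals are unstable, and the number of arrays limits the precision. Of 45101 probe sets, 34958 had 1 gene symbol, 932 several and 9211 none in the platform annotation. Groups came from the sample titles. limma 3.58.1 in R 4.3.3 (lmFit, eBayes with intensity trend) was fitted to all 6 arrays of 3 groups with 18, the 20th percentile of all values, added before log2. Tests were two-sided, with 8.71 degrees of freedom after moderation, of which 3 were residual. An exact permutation test of 2 against 2 arrays cannot go below p = 0.333 and was not used. The procedure was tested on simulated data. The filter lets a gene with a weak group pass only where its other groups are high, which favours genes with differences. No probe set held identical values in replicate arrays.

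The 10 genes, the gene lists and the tests were chosen with earlier results of these data known. Named were all 10 genes and their probe sets, other family genes, the tested transport genes, up to 4 members of each other list with the smallest p and any defining marker, the 3 nearest genes by pattern, Ffar2, and genes in counts of 5 or fewer. Positions and promoters came from RefSeq tables of GRCm38.p6. Alternatives covered the pseudocount, floor, normalization, filter, probe set choice, replicate block, trend, groups in the fit and each array left out.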

Additional observations from a re-analysis of the deposited data

How the results depend on the processing

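Of 17 alternatives, Car3 kept its call in GPR41 KO in all 17 (log2 1.36 to 3.20) and in GPR43 KO in 15, lost with the mean over probe sets (0.90) and with no intensity trend (adjusted p = 0.0508). Car2 kept its call in 9 of 17 in each comparison, and its log2 difference stayed at 0.58 to 0.73 in GPR41 KO and 0.48 to 0.65 in GPR43 KO. Besides the arrays named in the report, its call was lost with no filter on weak genes (adjusted p = 0.0661 and 0.0665), no intensity trend (0.0625 and 0.0687) and only the 2 groups compared in the fit (0.0617 and 0.0700). The labels do not state that replicate numbers pair the arrays. Deviations of same-numbered arrays correlated by 0.107 between WT and GPR41 KO, -0.271 between WT and GPR43 KO and -0.0537 between the knockout groups. With 2 arrays a group these values cannot show whether the arrays were paired. With the replicate block Car2 had adjusted p of 0.0653 and 0.0704, and 401 and 295 genes were called against 541 and 432.

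Of the 8 tested carbonic anhydrase genes, 2 were called in each comparison with WT. In GPR41 KO this was 1 with no filter, the replicate block, no trend or only 2 groups, and 1 to 3 with 1 array left out. In GPR43 KO it was 1 with no filter, the mean over probe sets, the replicate block or only 2 groups, 0 with no trend, and 1 to 3 with 1 array left out. Over all genes, 541 were called in GPR41 KO, 335 with the filter at the 60th percentile, 360 with no trend and 195 to 891 with 1 array left out. For GPR43 KO the count was 432, with 280.0 at the 60th percentile, 217 with no trend and 129 to 759 with 1 array left out. Between the knockout groups it was 0, with 1 under median centring, only 2 groups or all probe sets, and 0 to 3 with 1 array left out. Median centring moved the median of all genes in GPR41 KO to 0.11 and the split of calls from 202 higher and 339 lower to 354 and 348, and Car9 in that comparison to 0.0033. Before centring, the median signal was 80.9 in GPR41 KO replicate 1 and 91.9 to 96.8 in the other arrays. The part of this array in these shifts was not tested. Signals near background, as for Car7, Car14 and the weak Car3 probe sets, limit what these arrays show.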
